A study of Mus musculus with 9 samples.

Results

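Mucins and goblet cell factors are the genes that give the airway its mucous layer and the secretory cells that make it. The 10 genes described here are taken by their symbols: the membrane mucins Muc1, Muc4, Muc16 and Muc20, the gel-forming mucins Muc5ac and Muc5b, and the goblet cell factors Agr2, Spdef, Foxa3 and Tff2. Of these 10 genes, 9 had a transcript cluster of their own on the array (3 membrane mucins, 2 gel-forming mucins and 4 factors), among 22180 genes named by the annotation. Muc20 was named only by a transcript cluster that it shares with Muc4, so no value is given for Muc20 alone.

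Lung organoids were grown from digested lung cells of male BALB/c mice aged 8 to 12 weeks, and their RNA was measured on 9 microarrays, 3 per group. CSD14 organoids came from mice exposed to cigarette smoke (CS) for 12 weeks and were harvested on day 14 of culture, CSD5 organoids came from mice with the same exposure and were harvested on day 5, and ND14 organoids came from naïve mice kept in clean air and were harvested on day 14. In all 3 groups 50000 cells were seeded in Matrigel with no sort for a cell type stated, in a proliferation medium with 5% FBS. After day 6 this was changed to a differentiation medium with 2% FBS, with or without ROCK and TGF-β inhibitors, so CSD5 organoids, harvested on day 5, had not reached the change. Smoke exposure is thus the stated difference between CSD14 and ND14, day and medium cannot be told apart between CSD14 and CSD5, and exposure, day and medium cannot be told apart between CSD5 and ND14.

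Membrane mucins are anchored in the apical surface of epithelial cells, where their long glycosylated ectodomains form a brush and their tails can signal. Gel-forming mucins are secreted, link into polymers through disulfide bonds and make the mobile mucus gel that cilia carry out of the lung. In the airway both gel-forming mucins come mainly from secretory cells, and in mice Muc5b is the basal mucin needed for mucociliary clearance while Muc5ac is the one induced in allergic and injured airways. Goblet cells fold mucins with the help of Agr2, and the transcription factors Spdef and Foxa3 direct their differentiation.

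Array medians lay between 2.79 and 3.04 on the log2 scale, and signals spanned 0.87 to 12.49. CSD5 replicate 1 lay apart from its own group. Across transcript clusters it correlated on average at 0.963 with CSD14, at 0.973 with its own group and at 0.991 with ND14. The ND14 arrays correlated with each other on average at 0.988 to 0.991. By this measure CSD5 replicate 1 was as close to the ND14 arrays as they were to each other. Results that involve CSD5 are therefore also given without CSD5 replicate 1. It was picked for this likeness to ND14, so leaving it out tends by itself to widen CSD5 over ND14 and narrow the CSD5 spread. Over all transcript clusters the calls of CSD5 over ND14 then went from 1 to 3333. Calls gained without it are a description and not separate support. As a check of epithelial content, the general epithelial marker Cdh1 lay between 10.23 and 10.36 on all arrays. The lung identity factor Nkx2-1 lay lower, between 4.02 and 5.23, so Cdh1 alone does not check the lung label. Pecam1 of endothelium lay between 2.30 and 2.62 and Ptprc of leukocytes between 2.35 and 3.28, near the array medians. Of the other macrophage markers, Mrc1 and Marco lay between 2.22 and 3.09, Csf1r between 2.86 and 4.71 with its highest values in CSD5, and Cd68, a lysosomal protein that is not restricted to macrophages, between 8.40 and 9.62. The labels number the arrays as biological replicates without naming separate animals or cultures. The p-values therefore weigh group differences only against the spread among these samples, which may in part be technical. In bulk RNA of this kind, fewer cells of a type and less RNA per cell cannot be told apart.

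The membrane mucins Muc1 and Muc4 were higher in CSD14 than in ND14 organoids, by 8.44-fold and 5.62-fold, whereas Muc16 did not pass the test. In both of the genes that passed, CSD14 lay highest, ND14 lowest and CSD5 between them. Muc1, a signalling mucin of the apical membrane of lung epithelium, had log2 signals of 10.33, 10.31 and 10.30 in CSD14, 8.59, 9.95 and 9.96 in CSD5 and 7.30, 7.31 and 7.10 in ND14. No array of 1 group overlapped an array of another, and the lowest CSD5 value was that of replicate 1. The means were 10.31 ± 0.015 in CSD14, 9.50 ± 0.79 in CSD5 and 7.24 ± 0.12 in ND14 (SD, n = 3 each). The log2 difference of CSD14 over ND14 was 3.08 (SE 0.31, 95% confidence interval 2.38 to 3.77, limma adjusted p = 0.000724). Between the neighbours in this order, CSD14 over CSD5 gave 0.81 (interval 0.12 to 1.51, limma adjusted p = 0.233) and CSD5 over ND14 gave 2.26 (interval 1.57 to 2.96, limma adjusted p = 0.118). Neither step passed the test with all 9 arrays, and without CSD5 replicate 1 the step of CSD5 over ND14 did, at 2.72 (limma adjusted p = 1.383e-06).

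Muc4, a large membrane mucin known in rat to bind the receptor ErbB2, had log2 signals of 8.45, 8.48 and 8.38 in CSD14, 6.42, 7.55 and 7.87 in CSD5 and 6.0, 5.90 and 5.94 in ND14. Its groups again did not overlap, and CSD5 replicate 1 lay nearer to ND14 than to the other CSD5 arrays. The log2 difference of CSD14 over ND14 was 2.49 (SE 0.30, interval 1.82 to 3.16, limma adjusted p = 0.00144). CSD14 over CSD5 gave 1.16 (SE 0.30, limma adjusted p = 0.0830) and CSD5 over ND14 gave 1.33 (SE 0.30, limma adjusted p = 0.195). Without CSD5 replicate 1 both steps passed, at 0.73 (limma adjusted p = 0.0152) for CSD14 over CSD5 and 1.76 (limma adjusted p = 3.174e-05) for CSD5 over ND14.

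**Figure D1:**
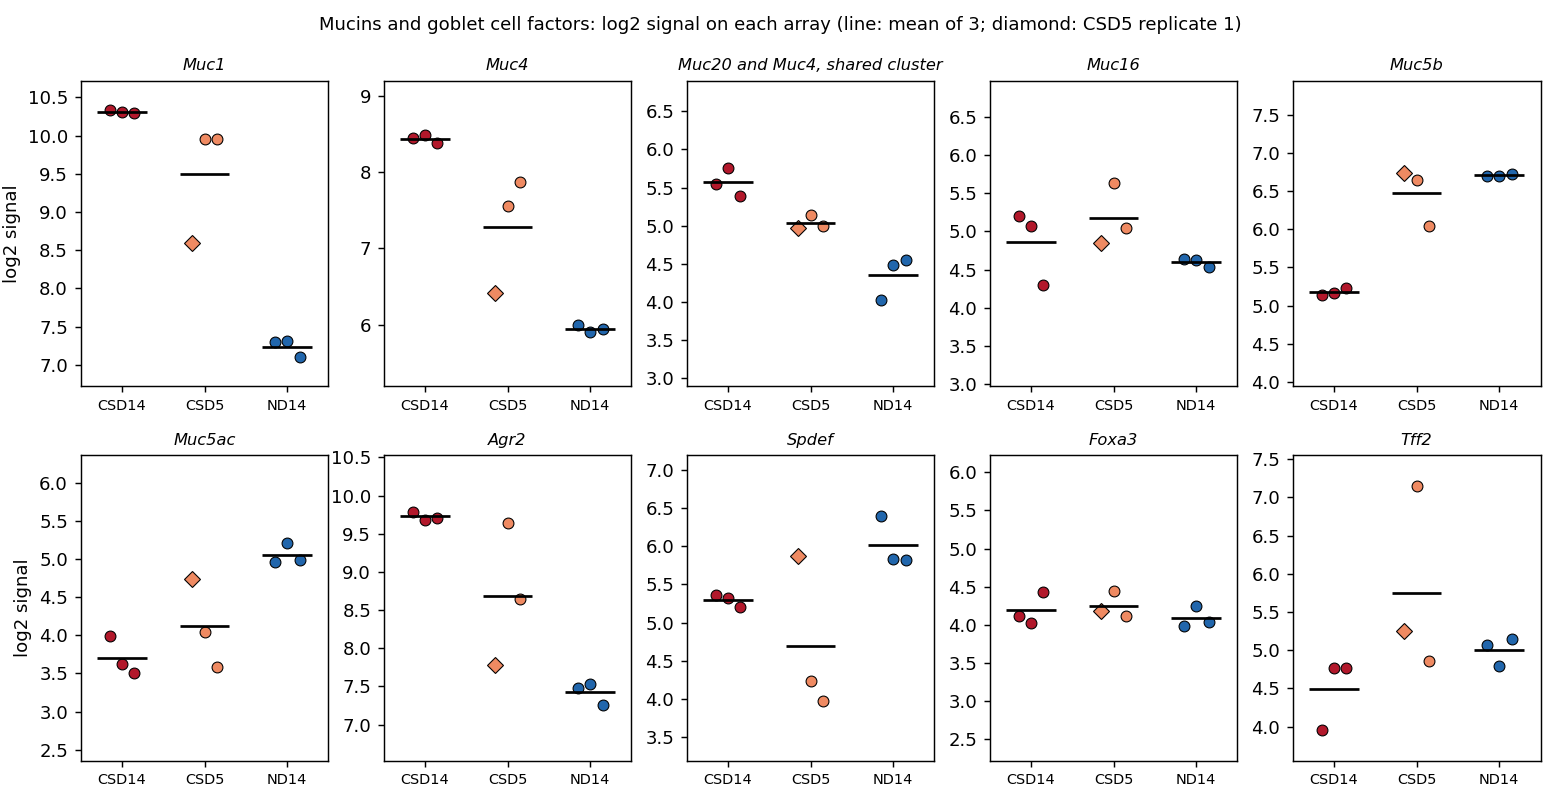
Log2 signal (vertical axis, 4 log2 units in every panel) of the 9 measured genes and of the transcript cluster naming both Muc20 and Muc4 in CSD14, CSD5 and ND14 organoids. Each point is 1 array, the diamond is CSD5 replicate 1 and the line is the group mean; by group mean Muc1, Muc4 and Agr2 are highest in CSD14, and Muc5b and Muc5ac are lowest there.

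The transcript cluster shared by Muc20 and Muc4 had signals of 5.55, 5.76 and 5.39 in CSD14, 4.97, 5.14 and 4.99 in CSD5 and 4.03, 4.49 and 4.55 in ND14. Its groups followed the same order as Muc1 and Muc4 without overlap, and CSD14 over ND14 was 1.21 (SE 0.16, 2.31-fold, limma adjusted p = 0.00204). In the RefSeq annotation of build GRCm38.p6, Muc4 lies at chr16:32735886-32782391 and Muc20 at chr16:32777419-32797435, so the gene spans overlap, and the signal cannot be split between them. Muc16, the long tethered mucin of the ocular and airway surface, had signals of 5.20, 5.07 and 4.30 in CSD14, 4.85, 5.64 and 5.04 in CSD5 and 4.64, 4.63 and 4.54 in ND14. The CSD14 arrays lay on both sides of those of ND14, and the log2 difference was 0.25 (interval -0.32 to 0.82, limma adjusted p = 0.708). All CSD5 arrays of Muc16 lay above those of ND14, by 0.57 on average (limma adjusted p = 0.359).

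The sequence before the start of 4 of the genes is shown because Muc1, Muc4 and Agr2 were higher together in CSD14 and Spdef was not. Each run is the 250 bases before the start that RefSeq gives on build GRCm38.p6, 5′ to 3′ on the strand of the gene: chr3:89228806-89229055 (plus) for Muc1, chr16:32735636-32735885 (plus) for Muc4, chr12:35992675-35992924 (plus) for Agr2 and chr17:27728952-27729201 (minus) for Spdef, whose start here lies inside its longest annotated span. Capitals mark a match to a motif that was searched.
Muc1: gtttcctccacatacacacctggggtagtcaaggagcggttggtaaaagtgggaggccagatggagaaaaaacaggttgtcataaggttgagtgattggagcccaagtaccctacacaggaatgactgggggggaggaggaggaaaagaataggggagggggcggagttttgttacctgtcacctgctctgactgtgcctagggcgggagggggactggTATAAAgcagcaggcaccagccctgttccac
Muc4: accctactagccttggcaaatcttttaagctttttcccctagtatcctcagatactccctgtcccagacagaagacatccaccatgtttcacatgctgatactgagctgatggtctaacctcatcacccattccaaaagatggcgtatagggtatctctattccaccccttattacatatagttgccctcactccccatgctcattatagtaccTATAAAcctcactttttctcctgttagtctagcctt
Agr2: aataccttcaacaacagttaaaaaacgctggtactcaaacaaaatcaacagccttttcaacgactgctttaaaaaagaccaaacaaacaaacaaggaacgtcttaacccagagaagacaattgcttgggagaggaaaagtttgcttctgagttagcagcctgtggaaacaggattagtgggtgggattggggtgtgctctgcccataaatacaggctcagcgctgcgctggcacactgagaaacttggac
Spdef: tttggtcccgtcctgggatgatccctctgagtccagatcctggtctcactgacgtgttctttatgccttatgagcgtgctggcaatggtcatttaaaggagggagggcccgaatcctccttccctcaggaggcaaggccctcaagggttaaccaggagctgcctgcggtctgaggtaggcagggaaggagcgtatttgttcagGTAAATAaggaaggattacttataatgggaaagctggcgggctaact
Both strands were searched for the forkhead core TGTTTAC, its variant form TATTTAC, the Spdef core ATCCGG, the AP-1 site TGANTCA, the STAT site TTCNNNGAA and the TATA box TATAAA. The Muc1 window held the TATA box 31 to 26 bases before the start, and the Muc4 window held it 36 to 31 bases before. Of 32851 mouse promoters of this length, 12.4% held TATAAA. The Spdef window held GTAAATA, the opposite strand of TATTTAC, 47 to 41 bases before the start, and 2.73% of promoters held that motif. The Agr2 window held none of the 6 motifs. The Spdef core, the AP-1 site and the STAT site, which 4.94%, 6.75% and 7.02% of promoters held, were in none of the members' windows. Of the 10 genes 7 had a promoter in the table used; the Muc20 window held GTAAACA, the opposite strand of TGTTTAC, which 3.17% of promoters held, the Foxa3 window held TATAAA, and the Muc16 window held none. A match is a string of letters and was not tested for binding or use.

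Both gel-forming mucins were lower in CSD14 than in ND14 organoids, by 2.88-fold for Muc5b and 2.54-fold for Muc5ac. Muc5b, the basal mucin of mouse airway, had log2 signals of 5.14, 5.16 and 5.23 in CSD14, 6.74, 6.64 and 6.04 in CSD5 and 6.70, 6.69 and 6.72 in ND14. The CSD14 arrays lay below every array of the other groups, whereas those of CSD5 and ND14 overlapped. The means were 5.18 ± 0.047 in CSD14, 6.47 ± 0.38 in CSD5 and 6.70 ± 0.015 in ND14 (SD, n = 3 each). CSD14 over ND14 was -1.53 (SE 0.17, interval -1.90 to -1.15, limma adjusted p = 0.00101). CSD14 over CSD5 was -1.30 (SE 0.17, limma adjusted p = 0.00596), or -1.16 without CSD5 replicate 1 (limma adjusted p = 0.00573). With all 9 arrays Muc5b was the 1 gene of the 9 that passed between the 2 days of smoke-derived culture. Without CSD5 replicate 1, Muc4 and Spdef passed there too. The call on Muc5b was lost when only the 6 arrays of these groups were fitted (limma adjusted p = 0.0553). CSD5 over ND14 was -0.23 (interval -0.61 to 0.15, limma adjusted p = 0.561).

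Muc5ac, the mucin induced in allergic airways, had log2 signals of 3.99, 3.62 and 3.50 in CSD14, 4.74, 4.04 and 3.58 in CSD5 and 4.96, 5.21 and 4.98 in ND14. All CSD14 and all CSD5 arrays lay below those of ND14, and the CSD14 and CSD5 arrays overlapped. CSD14 over ND14 was -1.35 (SE 0.26, interval -1.92 to -0.77, limma adjusted p = 0.0105). CSD14 over CSD5 was -0.42 (interval -0.99 to 0.16, limma adjusted p = 0.473) and CSD5 over ND14 was -0.93 (limma adjusted p = 0.216). Without CSD5 replicate 1, the highest of its group, CSD5 over ND14 was -1.24 and passed (limma adjusted p = 0.00271). CSD5 replicate 3 of Muc5ac, at 3.58, lay within the CSD14 range, whereas all CSD5 arrays of Muc5b lay above those of CSD14.

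Muc5ac (chr7:141788958-141819227) and Muc5b (chr7:141839059-141873089) lie side by side in the secreted mucin cluster, next to Muc2 (chr7:141690340-141754691) and Muc6 (chr7:141633459-141655393). Muc2, the chief gel-forming mucin of the intestine, had log2 signals of 5.87, 6.15 and 5.77 in CSD14, 3.85, 4.72 and 4.72 in CSD5 and 3.99, 4.11 and 3.94 in ND14. Its CSD14 arrays lay above all others, opposite in direction to its neighbours Muc5ac and Muc5b, and CSD14 over ND14 was 1.92 (SE 0.22, 3.78-fold, limma adjusted p = 0.00128). Muc6, a gastric gland mucin, lay at 3.03, 2.94 and 3.23 in CSD14, 3.13, 2.73 and 2.93 in CSD5 and 2.96, 3.27 and 2.96 in ND14, near the array medians throughout. The difference of CSD14 over ND14 for Muc6 was 0.0033 (SE 0.14, limma adjusted p = 0.994).

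Of the goblet cell factors, Agr2 was 4.94-fold higher in CSD14 than in ND14 organoids and the other 3 did not pass the test. Agr2, an endoplasmic reticulum disulfide isomerase that mucin folding needs, had log2 signals of 9.79, 9.68 and 9.71 in CSD14, 7.78, 9.64 and 8.64 in CSD5 and 7.48, 7.53 and 7.26 in ND14. The groups did not overlap, although CSD5 replicate 2 came within 0.1 of CSD14 and CSD5 replicate 1 lay near ND14. CSD14 over ND14 was 2.30 (SE 0.36, interval 1.49 to 3.11, limma adjusted p = 0.00413). CSD14 over CSD5 was 1.04 (SE 0.36, limma adjusted p = 0.192), and of the fits with 1 array left out it passed only without CSD5 replicate 2, at 1.52 (limma adjusted p = 0.0188). CSD5 over ND14 was 1.26 (SE 0.36, limma adjusted p = 0.222), and of the fits with 1 array left out it passed only without CSD5 replicate 1, at 1.72 (limma adjusted p = 0.00197). The direction of Agr2, which helps to fold secreted mucins, was therefore that of Muc1, Muc4 and Muc2, and opposite to that of Muc5ac and Muc5b.

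Spdef, the ETS factor on which goblet cell differentiation depends in mice, had log2 signals of 5.36, 5.32 and 5.20 in CSD14, 5.87, 4.23 and 3.98 in CSD5 and 6.40, 5.84 and 5.82 in ND14. All CSD14 arrays lay below those of ND14, and CSD5 spanned the widest range, with replicate 1 among the ND14 values and the other 2 below every other array. With all 9 arrays no comparison passed: CSD14 over ND14 was -0.73 (SE 0.41, interval -1.65 to 0.19, limma adjusted p = 0.410), CSD14 over CSD5 was 0.60 (limma adjusted p = 0.520) and CSD5 over ND14 was -1.33 (limma adjusted p = 0.234). Without CSD5 replicate 1 all of them passed, with CSD14 over ND14 at -0.73 (limma adjusted p = 0.0184), CSD14 over CSD5 at 1.19 (limma adjusted p = 0.00919) and CSD5 over ND14 at -1.92 (limma adjusted p = 0.000192). A fit of only the CSD14 and ND14 arrays also passed for Spdef (limma adjusted p = 0.0328).

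Foxa3, a forkhead factor that induces goblet cell genes in mouse airway, had log2 signals of 4.12, 4.03 and 4.43 in CSD14, 4.18, 4.45 and 4.12 in CSD5 and 3.99, 4.25 and 4.04 in ND14. All groups overlapped, and the interval of CSD14 over ND14 ran between -0.22 and 0.42 around a difference of 0.10 (limma adjusted p = 0.811). Tff2, a trefoil peptide secreted with mucins, had log2 signals of 3.95, 4.76 and 4.76 in CSD14, 5.25, 7.15 and 4.86 in CSD5 and 5.07, 4.79 and 5.14 in ND14. CSD5 replicate 2 lay well above all other arrays, and those of CSD14 were the lowest. CSD14 over CSD5 was -1.26 for Tff2 (SE 0.50, limma adjusted p = 0.253) and CSD14 over ND14 was -0.51 (limma adjusted p = 0.700).

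Counted over the 9 measured genes, 5 passed an adjusted p under 0.05 in CSD14 over ND14, where 9.15% of all 34472 transcript clusters did. Of these, 3 were higher (Muc1, Muc4 and Agr2), against 5.48% of all transcript clusters, and 2 were lower (Muc5ac and Muc5b), against 3.66%. At an unadjusted p under 0.05 the count was 5 (background 19.3%), and with a fold change over 2 required as well, as the study's methods do, it was 5 (background 4.75%). The CSD14 arrays lay wholly above those of ND14 for 3 of the 9 genes (background 13.1%) and wholly below for 4 (background 11.2%), with a background of 24.3% for either direction. In CSD14 over CSD5, 1 gene passed (Muc5b, lower), where 2.41% of transcript clusters passed in either direction, 1.91% higher and 0.496% lower. There 5 genes had an unadjusted p under 0.05 (background 16.1%), 4 passed the study's thresholds (background 1.79%), and the CSD14 arrays lay wholly above those of CSD5 for 3 genes (background 14%) and wholly below for 2 (background 4.19%), with 18.2% for either direction. In CSD5 over ND14 limma called 0 of the 9 genes and 0.0029% of transcript clusters, all higher (0% lower). There 6 genes had an unadjusted p under 0.05 (background 13.8%), 4 passed the study's thresholds (background 1.98%), and the CSD5 arrays lay wholly above those of ND14 for 4 genes (background 4.31%) and wholly below for 1 (background 8.97%), with 13.3% for either direction. Without CSD5 replicate 1 the counts in CSD14 over ND14 were 3 higher (background 6.47%) and 3 lower (background 5.4%), Spdef joining the lower genes, with a background of 11.9% for either direction. In CSD14 over CSD5 they were 2 higher, Muc4 and Spdef (background 2.87%), and 1 lower, Muc5b (background 1.24%), with a background of 4.11% for either direction. In CSD5 over ND14 they were 3 higher, Muc1, Muc4 and Agr2 (background 3.4%), and 2 lower, Muc5ac and Spdef (background 6.27%), with a background of 9.67% for either direction. These 3 comparisons share arrays, so their values stand side by side and are not independent. The genes were chosen with earlier results of these data known, so the counts are a description.

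**Figure D2:**
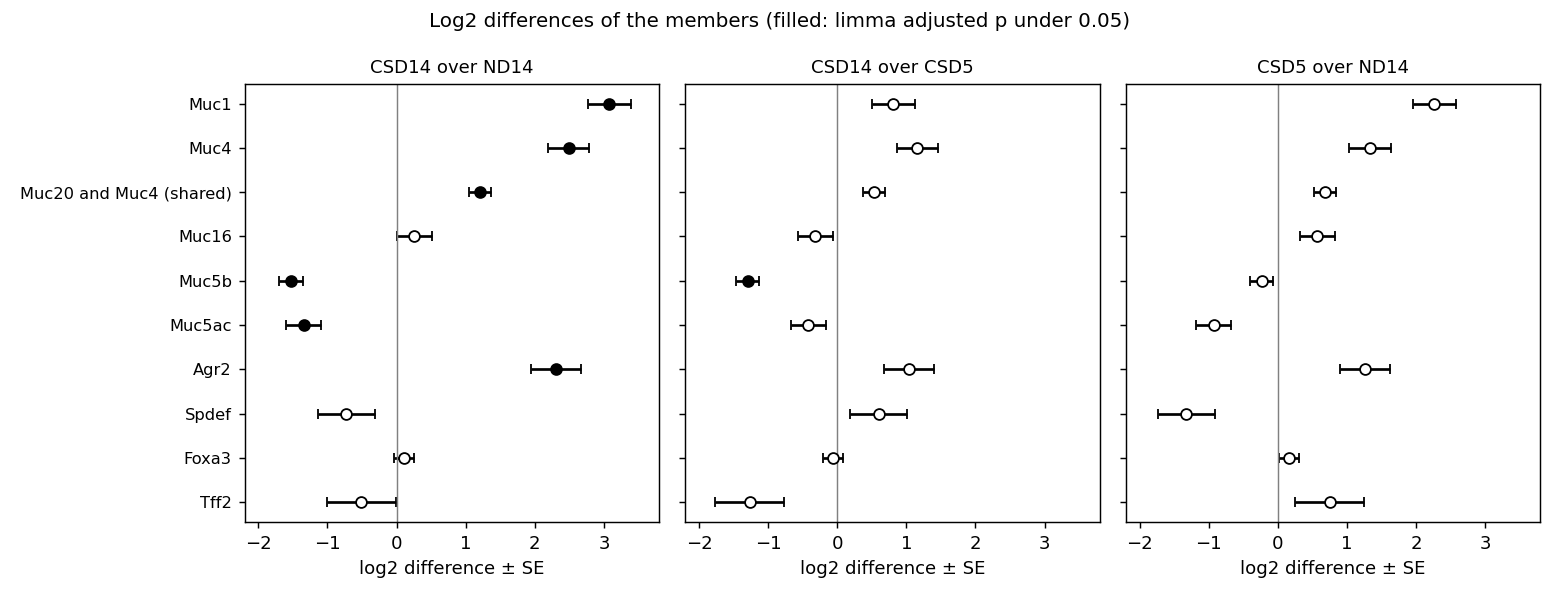
Log2 difference (horizontal axis) of each gene in CSD14 over ND14, CSD14 over CSD5 and CSD5 over ND14, with bars of 1 SE from limma. Filled points have an adjusted p under 0.05; 5 of the 9 genes and the shared transcript cluster of Muc20 and Muc4 are filled in CSD14 over ND14, Muc5b alone in CSD14 over CSD5 and none in CSD5 over ND14.

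Around the 9 genes, 104 of 108 further genes of the mucus pathway in 7 lists were measured, and 27 were higher and 11 lower in CSD14 than in ND14 organoids at an adjusted p under 0.05, where 5.48% of all transcript clusters were higher and 3.66% lower. The background includes 9131 transcript clusters with no symbol. Without the lowest 40 percent of transcript clusters, 2156 were higher and 1458 lower, against 1890 and 1263 over all. The lists were chosen with earlier results of these data known, so their counts are a description. The median log2 difference over the 104 was 0.09, where that over all transcript clusters was 0.00. Lower genes numbered 6 and 5 without CSD14 replicates 2 and 3 in turn, and 5 and 7 without ND14 replicates 1 and 3. Lower calls over all transcript clusters fell as well, from 1263 to between 661 and 746 without any 1 CSD14 or ND14 array. Higher calls fell from 1890 to between 1102 and 1554. The counts of the separate lists below with 1 array left out stand against these falls.

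Among 7 other genes listed as membrane mucins, 2 were higher in CSD14 than in ND14 organoids, 1 was lower and 4 did not pass, with a median of 0.18. Mcam, a cell adhesion molecule that is not itself a mucin, was among those that did not pass (-0.21, limma adjusted p = 0.568). Muc13, a membrane mucin of intestine and airway, lay at 4.22, 4.71 and 4.49 in CSD14, 3.07, 3.03 and 3.10 in CSD5 and 2.76, 3.16 and 3.11 in ND14. Its CSD14 arrays stood above all others, with differences of 1.46 over ND14 (limma adjusted p = 0.000827) and 1.41 over CSD5 (limma adjusted p = 0.00289). Cd164, the sialomucin endolyn, was higher by 0.87 over ND14 (limma adjusted p = 0.00166). Muc15 was lower by a log2 difference of -2.16 (limma adjusted p = 0.0166), with CSD14 signals of 2.03, 1.39 and 1.91 under the array medians against 4.20, 3.46 and 4.16 in ND14. The call on Muc15 was lost without CSD14 replicate 2 or 3, or without ND14 replicate 1 or 3. Of the 3 other secreted mucins only Muc2 passed, and Muc19 had a difference of -0.04 over ND14 (limma adjusted p = 0.938).

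Among 18 goblet and mucous cell products, 7 were higher, 1 was lower and 10 did not pass in CSD14 over ND14, with a median of 0.59. Bpifa1, an abundant secreted protein of upper airway secretory cells, lay at 11.93, 11.89 and 12.04 in CSD14, 9.81, 11.32 and 11.03 in CSD5 and 9.26, 9.39 and 9.15 in ND14. Its groups did not overlap, and CSD14 over ND14 was 2.69 (SE 0.32, limma adjusted p = 0.00134). Pigr, the receptor that carries polymeric IgA into secretions, was higher by 2.51 (SE 0.37, limma adjusted p = 0.00301), and Scgb3a1, a secretoglobin of airway secretory cells, by 1.08 (SE 0.16, limma adjusted p = 0.00358). The 1 lower gene was Clca2, a membrane protein of the chloride channel regulator family that is not itself a mucous product, at -1.79 (SE 0.15, limma adjusted p = 0.000330). Agr3 and Fcgbp, a relative of Agr2 and a mucus protein that binds IgG Fc, were also higher in CSD14, by 1.15 and 1.14 over ND14 (limma adjusted p = 0.0154 and 0.00529).

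**Figure D3:**
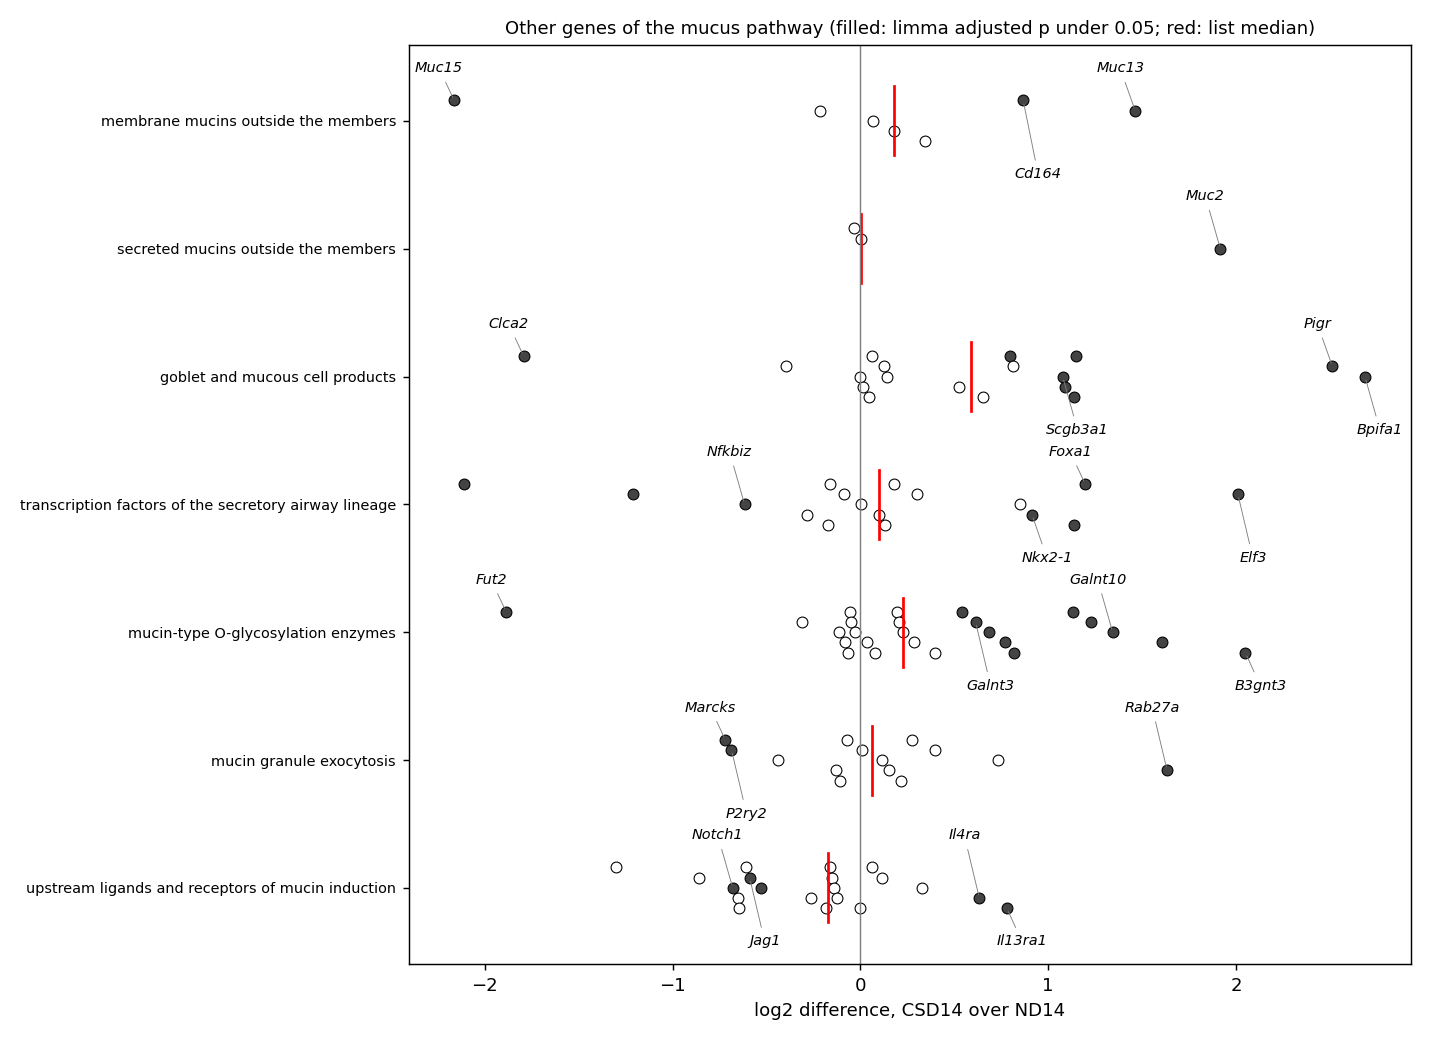
Log2 difference of CSD14 over ND14 (horizontal axis) for 104 genes of 7 lists outside the 10 genes, with 1 point per gene, filled where the limma adjusted p was under 0.05, and a red line at each list median. The genes of smallest adjusted p are named; the medians lie between -0.17 and 0.59.

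The 17 transcription factors of the secretory airway lineage split, with 4 higher, 3 lower and 10 that did not pass, and a median of 0.10. Elf3, an epithelial ETS factor, was higher by 2.01 (limma adjusted p = 0.00247), Foxa1 by 1.20 (limma adjusted p = 0.00671) and the lung identity factor Nkx2-1 by 0.91 (limma adjusted p = 0.00212). Nfkbiz, a nuclear IκB protein, was lower, at -0.62 (limma adjusted p = 0.00670). Differences in this list ran from -2.11 to 2.01, and Nfkbiz was named for its adjusted p and not as the largest fall. Among 25 enzymes of mucin-type O-glycosylation, which build the sugar chains of all mucins, 10 were higher, 1 was lower and 14 did not pass, with a median of 0.23. B3gnt3, which extends core structures, was higher by 2.05 (limma adjusted p = 0.00236), and the chain-starting transferases Galnt10 and Galnt3 by 1.34 and 0.61 (limma adjusted p = 0.00278 and 0.00515). Fut2, the secretor fucosyltransferase, was lower, with 3.57, 3.39 and 3.59 in CSD14, 5.44, 4.11 and 4.02 in CSD5 and 5.42, 5.57 and 5.22 in ND14, a difference of -1.89 (limma adjusted p = 0.00574). CSD5 replicate 1 of Fut2 lay within the ND14 range and the other arrays of CSD5 lay between the CSD14 and ND14 ranges. The 10 higher enzymes became 4, 6 and 3 without CSD14 replicate 1, 2 or 3, and 5 without any 1 of the ND14 arrays.

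Among 14 genes of mucin granule exocytosis, 1 was higher, 2 were lower and 11 did not pass, with a median of 0.06. Rab27a, a GTPase of secretory granule docking, was higher by 1.63 (limma adjusted p = 0.00396). P2ry2, the purinergic receptor through which ATP triggers mucin release, was lower, at -0.69 (limma adjusted p = 0.0145), as was the granule-binding Marcks, at -0.72 (limma adjusted p = 0.0296). The 2 lower calls became 1 without CSD14 replicate 1, ND14 replicate 2 or ND14 replicate 3, and 0 without CSD14 replicate 2, CSD14 replicate 3 or ND14 replicate 1, and the 1 higher call became 2 without CSD5 replicate 1. Among 20 upstream ligands and receptors of mucin induction, 2 were higher, 3 were lower and 15 did not pass, with a median of -0.17. The interleukin-13 receptor chain Il13ra1 was higher by 0.78 over ND14 (limma adjusted p = 0.00301) and by 0.84 over CSD5 (limma adjusted p = 0.00690), and its partner chain Il4ra by 0.63 over ND14 (limma adjusted p = 0.0108). Il13 itself, named after its values were seen, lay between 2.38 and 3.10 on all arrays, near the medians. Notch1 and its ligand Jag1 were lower, at -0.68 and -0.59 (limma adjusted p = 0.00650 and 0.0139). Leaving out CSD5 replicate 1 gave 7 lower genes in that list, leaving out CSD5 replicate 3 gave 5, and leaving out CSD14 replicate 2, CSD14 replicate 3 or ND14 replicate 1 gave 1. The higher count was 1 when ND14 replicate 1 was left out.

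In CSD14 over CSD5, 9 of the 104 genes were higher and 2 lower (Clca2 at -1.17 and Notch1 at -0.65), where 1.91% of all transcript clusters were higher and 0.496% lower. Muc13 and Il13ra1, given above, were among the higher genes, as were Muc2 at 1.5 (limma adjusted p = 0.0105), Fcgbp at 1.28 (limma adjusted p = 0.0103), Agr3 at 1.21 (limma adjusted p = 0.0346), Scgb3a1 at 0.88 (limma adjusted p = 0.0273), Galnt12 at 0.69 (limma adjusted p = 0.0387), Galnt3 at 0.61 (limma adjusted p = 0.0170) and Cd164 at 0.56 (limma adjusted p = 0.0295). The median over the 104 was 0.12, against 0.09 over all transcript clusters. The counts were 15 higher and 4 lower without CSD5 replicate 1, the higher count was 3 without CSD14 replicate 1 and 5 without CSD14 replicate 3, CSD5 replicate 3, ND14 replicate 1 or ND14 replicate 3, and the lower count was 1 without CSD14 replicate 1, CSD14 replicate 3 or CSD5 replicate 3. The call on Muc2 was among those lost without CSD14 replicate 1. In CSD5 over ND14 limma called 0 of the 104 genes, and 30 had an unadjusted p under 0.05 (background 13.8%). Without CSD5 replicate 1 the counts were 18 higher (background 3.4%) and 11 lower (background 6.27%).

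Taken by class, the mean log2 signal of the 3 membrane mucins was 7.66 to 7.99 in CSD14, 6.62 to 7.71 in CSD5 and 5.86 to 5.98 in ND14. That of the 2 gel-forming mucins was 4.37 to 4.57 in CSD14, 4.81 to 5.74 in CSD5 and 5.83 to 5.95 in ND14. The class means of these genes stood in opposite order, with the membrane mean highest and the gel-forming mean lowest in CSD14. This order holds for the genes chosen and not for every mucin measured. Of 7 other genes listed as membrane mucins, 2 were higher in CSD14 than in ND14, 1 was lower (Muc15 at -2.16) and 4, Mcam among them, did not pass. Of 3 other secreted mucins, Muc2 was higher, at 1.92, and 2 did not pass (Muc6 at 0.0033 and Muc19 at -0.04). The membrane mean was carried by Muc1 and Muc4, since Muc16 did not pass and had its highest mean in CSD5 (5.18, against 4.86 in CSD14 and 4.6 in ND14). CSD5 replicate 2 lay within the CSD14 range of the membrane mean.

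Of 7 lists of epithelial markers, those of squamous, ciliated and club cells and of lung epithelium differed mainly in 1 direction between CSD14 and ND14. Of 10 squamous markers (keratinizing epithelium), 9 were lower in CSD14 than in ND14, and the mean level of the list was 5.33 to 5.46 in CSD14, 7.26 to 9.34 in CSD5 and 9.34 to 9.43 in ND14. CSD5 replicate 1 was the CSD5 array at 9.34. Of 5 ciliated cell markers all 5 were higher in CSD14 than in ND14, with list means of 6.06 to 6.38 in CSD14, 4.11 to 4.89 in CSD5 and 4.82 to 4.90 in ND14, so that CSD5 did not lie between the other groups. Of 5 club cell markers 3 were higher, with list means of 9.53 to 9.66 in CSD14, 9.08 to 9.51 in CSD5 and 8.53 to 8.74 in ND14. Of 5 lung epithelium markers 4 were higher, by at most 0.94. Of 5 alveolar type 2 markers 2 were higher (Sftpb at 2.05 and Abca3 at 1.11) and 0 lower at the threshold. Sftpc went the other way, at -1.52 with every CSD14 array below those of ND14 (limma adjusted p = 0.0597). Over CSD5 it was at -6.51 (limma adjusted p = 0.000356). The list means were 5.49 to 5.59 in CSD14, 6.23 to 7.70 in CSD5 and 5.07 to 5.20 in ND14, highest in CSD5. Of 5 alveolar type 1 markers 3 were higher and 1 was lower, with list means of 6.64 to 6.72 in CSD14, 6.27 to 6.98 in CSD5 and 5.99 to 6.22 in ND14. Of 4 measured basal cell markers 1 was higher and 2 were lower, with list means of 8.23 to 8.35 in CSD14, 8.40 to 8.68 in CSD5 and 8.15 to 8.31 in ND14. Limma called 0 of the 5 macrophage, 0 of the 5 fibroblast and 0 of the 5 endothelial markers in CSD14 over ND14, and at an unadjusted p under 0.05 the counts were 0, 1 and 1. In CSD14 over CSD5 limma called 1 macrophage marker lower, Csf1r at -1.29 (limma adjusted p = 0.0208), and 0 fibroblast and 0 endothelial markers. The unadjusted counts there were 3, 1 and 0. In CSD5 over ND14 limma called 0 of these markers, and the unadjusted counts were 4, 1 and 0. Dcn of fibroblasts lay at 3.29, 6.63 and 4.99 in CSD5 and between 2.56 and 3.29 in CSD14 and ND14. The part of these cell types in the mucin differences was not tested.

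**Figure D4:**
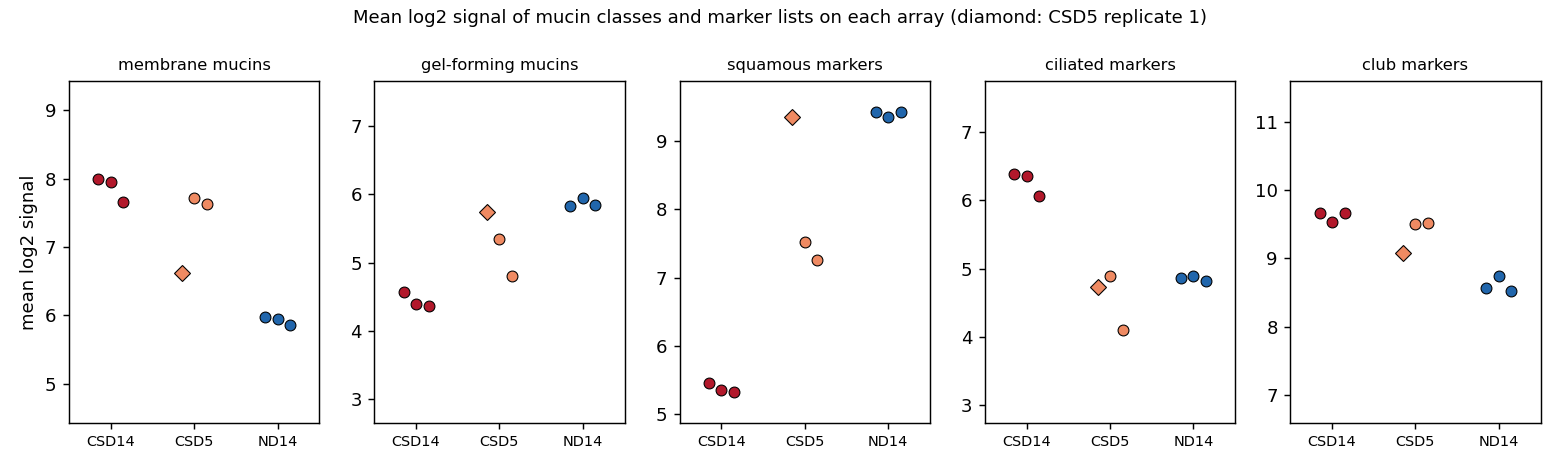
Mean log2 signal per array (vertical axis, 5 log2 units in every panel) of the membrane mucins, the gel-forming mucins and the squamous, ciliated and club cell marker lists in CSD14, CSD5 and ND14. Each point is 1 array and the diamond is CSD5 replicate 1; the squamous list runs between 5.33 and 5.46 in CSD14 and between 9.34 and 9.43 in ND14.

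The genes with a pattern most like that of each called gene over the 9 arrays were found by the root mean square difference of log2 signals after centring each gene on its own mean, over 22180 genes. These points share the same 9 arrays and the group differences, so the values are a description. Nearest to Muc1 were Oasl2 at 0.112, Sp100 at 0.237 and Fmo2 at 0.238, and nearest to Muc4 were Aqp4 at 0.0718, Irf7 at 0.108 and Slc39a4 at 0.116. Oasl2 is a relative of the oligoadenylate synthetases, Irf7 is a transcription factor of the interferon response and Aqp4 is a water channel. Nearest to Agr2 were Lcn2, the siderophore-binding lipocalin, at 0.136, Acsm1 at 0.181 and Osr2 at 0.184. Nearest to Muc5b were Slc6a14, an amino acid transporter, at 0.173, Plk2 at 0.178 and Slc7a11, the cystine transporter, at 0.198. Nearest to Muc5ac were Trim16 at 0.110, S100a14 at 0.127 and Gpsm2 at 0.135. Among pairs of the 9 genes themselves the closest was Muc4 with Agr2 at 0.331, followed by Muc16 with Foxa3 at 0.392, Muc1 with Muc4 at 0.396 and Muc5ac with Muc5b at 0.436, and the farthest was Muc1 with Muc5ac at 1.97.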

How the data were processed

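The data are 9 Affymetrix Mouse Gene 2.0 ST arrays of organoid RNA (10 ng RNA each), with groups and replicate numbers from the sample labels. The authors deposited 1 log2 signal for each transcript cluster, made in Transcriptome Analysis Console; the algorithm is not given in the sources used here. No further scaling or filter was applied, and their log2 scale was checked on the range of the values. Arrays carry no read depth, so their number limits the precision.

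Of 34472 transcript clusters, 23521 carried 1 symbol, 1820 several and 9131 none. A gene was represented by the cluster of highest mean over the 9 arrays. The test was that of limma (version 3.58.1, R version 4.3.3), in 1 model of 3 groups over 9 arrays, with empirical Bayes moderation and Benjamini-Hochberg adjustment over all transcript clusters (threshold 0.05), tested first on simulated data. An exact test of 3 arrays against 3 cannot give a p under 0.1. The alternatives were other fits, scalings and filters, the study's thresholds (unadjusted p under 0.05, fold over 2) and each array left out.

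The members, the 7 lists and the 55 markers (54 measured) were chosen with earlier results of these data known. Named were all members, up to 4 called genes of smallest adjusted p per list and comparison, and the 3 genes most like each called member. Muc6, Muc19, Mcam, Il13 and the marker genes stand outside this rule. Gene symbols are those of the platform annotation, and positions and promoter sequences are from RefSeq (GRCm38.p6); the STAT and TATAAA motifs were added after values were seen. Plots were made in Python 3.11.15 (matplotlib 3.10.9).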

Additional observations from a re-analysis of the deposited data

How the results depend on the processing

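No called difference turned direction under the alternatives run; among the 9 genes a sign turned only for Foxa3, which passed in no comparison, with CSD14 over ND14 at -0.0183 without CSD14 replicate 3, and CSD14 over CSD5 at 0.025 without CSD14 replicate 2 and 0.0433 without CSD5 replicate 2. In CSD14 over ND14 the 5 calls among the 9 genes stood in every other alternative run, but the count was 3 without moderation, where Muc5ac (limma adjusted p = 0.0746) and Agr2 (0.0504) missed the threshold; leaving out 1 array gave 5 to 6. In CSD14 over CSD5 the 1 call (Muc5b) became 0 with only the 6 arrays compared and 0 without moderation (limma adjusted p = 0.0563), 3 with array weights and 4 at the study's thresholds; leaving out 1 array gave 1 to 3, and Muc4 passed as the mean of its own and the shared transcript cluster (0.85, limma adjusted p = 0.0478). In CSD5 over ND14 the count of 0 became 7 with array weights and 4 at the study's thresholds, and leaving out 1 array gave 0 to 5, with 5 only without CSD5 replicate 1. The cause of these differences was not tested.

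Over all transcript clusters, the 3153 calls of CSD14 over ND14 became 1391 without moderation, 5014 with array weights and 1637 at the study's thresholds, and 1763 to 4090 with 1 array left out. The 831 calls of CSD14 over CSD5 became 141 with only 6 arrays, 182 without moderation and 2514 with array weights, and 223 to 1417 with 1 array left out. Of the 831 calls, 660 were higher and 171 lower; the split was 452 and 288 after median centring and 529 and 324 after quantile normalization. The 1 call of CSD5 over ND14 became 0 with only 6 arrays, 0 without moderation, 5900 with array weights and 683 at the study's thresholds, and 0 to 3333 with 1 array left out. Median centring and quantile normalization turned no sign among the 9 genes and moved no difference by over 0.1241.

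The replicate numbers did not pair the samples: same-numbered arrays of different groups had residual correlations between -0.133 and 0.065. With the replicate number as a block, 505 transcript clusters passed in CSD14 over CSD5, 0 in CSD5 over ND14 and 2824 in CSD14 over ND14, and the counts among the 9 genes were 5, 1 and 0 in CSD14 over ND14, CSD14 over CSD5 and CSD5 over ND14.

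With 3 arrays a group, a difference that missed the threshold is bounded only by its interval. Low signals near or under the array medians, as in Muc15, Agr3 and Il13, limit what can be read from them.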
